A study of Homo sapiens with 9 samples.

Results

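The 10 genes described here encode heat shock chaperones of the cytosol and mitochondria, their co-chaperones and their main transcription factor: HSF1, HSP90AA1, HSP90AB1, HSPA8, HSPD1, HSPE1, HSPH1, DNAJB1, HSPB1 and BAG3. They were chosen by name from the 15983 genes of a count table, and all 10 had a row and passed the filter on low counts. RNA sequencing was done on KGN cells, a human granulosa cell tumour line used as a model of the cells that surround the oocyte and make oestrogen, with the genotype labelled WT in all groups. All cultures were fasted for 12 h and then kept for 72 h with solvent (control, 3 libraries), with 0.5 µg/ml insulin (the lower dose, 3 libraries) or with 1 µg/ml insulin (the higher dose, 3 libraries). The question, per the series title, was what a high insulin concentration does to these cells. Whether replicates were grown apart is not said in the labels; the p-values below therefore measure only the spread between these libraries, which may be technical, and all libraries come from 1 tumour line.

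Heat shock proteins bind unfolded or partly folded proteins and keep them from clumping, fold them with the energy of ATP or pass them on for breakdown. HSF1 is held inactive by chaperones in unstressed cells. When unfolded protein draws the chaperones away, HSF1 forms trimers, binds heat shock elements in front of chaperone genes and raises their transcription. Several members are also made at high level without stress.

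Library totals ran from 18965722 to 20446405 counts. Of the 12 granulosa markers listed, 11 were tested, from GATA4 at 172 ± 10.8, NR5A1 at 61.7 ± 3.26 and FOXL2 at 26.2 ± 2.02 CPM down to HSD17B1 at 0.730 ± 0.153 and INHA at 0.656 ± 0.266 CPM (counts scaled to a common library total; SD, n = 9), and AMHR2 had 34 counts in all. The 3 theca cell markers CYP17A1, INSL3 and LHCGR had 1 count each over all libraries. Some markers of other cell types were far higher, with COL1A1 at 9027 ± 589 and KRT18 at 1756 ± 82.8 CPM, while EPCAM had 7 counts in all. The summed fibroblast and muscle markers ran from 9381 to 10213 CPM in control, 9474 to 10940.3 CPM at the lower dose and 9016 to 9591 CPM at the higher dose. The library lower dose 1 stood apart: it held the highest or the lowest value of 37.6% of the 12665 tested genes, against 15.8% to 27.5% for the other libraries. Where it moved a member's value most, the value without it is given beside the result; values without it were chosen after seeing the data. Levels are averages over a culture, so fewer cells with a transcript and fewer transcripts per cell cannot be told apart.

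The route by which HSF1 reaches these genes is the heat shock element, made of GAA units in alternating orientation. RefSeq windows from 250 bases before to 50 bases after each transcript start (GRCh38.p14) were searched for pairs of units (GAANNTTC or TTCNNGAA) and for runs of 3 (TTCNNGAANNTTC or GAANNTTCNNGAA). Overlapping matches were counted, and the motifs read the same or as each other on the opposite strand. Windows were found for 9 of the 10 members, 15 in all since some have several starts. A pair of units stood in 7 of the 15 windows, where 13.5% of all 35116 windows hold one, and a run of at least 3 units in 4 of the 15, where 0.490% of all windows do. Counted by gene, 6 of the 9 members held a pair in some window, beside 16.2% of 27305 genes, and 4 of the 9 held a run of 3, beside 0.608%. The runs of 3 or more are printed below with their flanks, 5′ to 3′ on the strand of the gene and with the units and the bases between them in capitals, because this alternating run is the form that HSF1 trimers are known to bind.
HSPA8, chr11:123062346-123062375, minus strand: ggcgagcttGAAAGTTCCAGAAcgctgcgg
HSPA8, chr11:123062171-123062200, minus strand: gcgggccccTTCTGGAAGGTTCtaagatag
HSP90AA1, chr14:102087112-102087141, minus strand: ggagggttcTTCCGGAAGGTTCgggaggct
HSP90AB1, chr6:44247769-44247798, plus strand: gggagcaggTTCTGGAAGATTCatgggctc
HSP90AB1, chr6:44247822-44247851, plus strand: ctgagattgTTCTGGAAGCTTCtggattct
HSPD1, chr2:197500061-197500090, minus strand: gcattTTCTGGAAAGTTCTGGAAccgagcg
The HSPA8 runs lay 230 and 55 bases before the start that defines the window, and in untranslated exonic sequence of the GENCODE annotation. The HSP90AA1 run lay 88 bases before the start nearest to it, also in untranslated exonic sequence, and both HSP90AB1 runs lay in an intron. HSPD1 carried 4 units in a row, 245 bases before the more downstream of its starts and in untranslated exonic sequence. HSPB1 and DNAJB1 had pairs of units only, and the windows of BAG3, HSPH1 and HSPE1 held neither motif. A match is a string of letters and not a measured binding site, and no match says only that these letters were not in these windows.

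Levels can be compared between genes only per length, for which the authors' FPKM values (fragment counts divided by transcript length and library depth) were used. HSPB1, a small heat shock protein that holds unfolded clients without ATP, had the highest FPKM of the members at 664 ± 36.9 (SD, n = 9). It ranked 68th of 15983 genes. It was followed by HSPA8, the constitutive cytosolic HSP70, at 575 ± 9.81, HSP90AB1 at 407 ± 15.9, HSP90AA1 at 164 ± 4.65 and HSPD1 at 132 ± 5.28 FPKM (SD, n = 9). The co-chaperones and the transcription factor stood well below: BAG3 at 40.4 ± 1.48, HSF1 at 36.1 ± 1.83, DNAJB1 at 25.3 ± 1.65, HSPH1 at 15.1 ± 0.613 and HSPE1 at 9.08 ± 1.44 FPKM (SD, n = 9). Every member lay above the next in this order in 9 of 9 libraries, and BAG3 and HSF1 were the only neighbours whose ranges over the libraries overlapped. This order rests on the gene lengths that the FPKM values imply, such as 777 bases for HSPB1, 2284 for HSPA8 and 4083 for DNAJB1. The GENCODE transcripts nearest in length have 909, 2301 and 2264 bases. At these transcript lengths DNAJB1 would stand higher, above HSF1 and BAG3, and HSPB1 lower, about level with HSPA8. The order above, with HSPB1 at 1.15 times HSPA8, therefore holds for the implied lengths only. Together the 10 genes took between 0.422% of the counts (lower dose 1) and 0.438% (control 1).

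**Figure D1:**
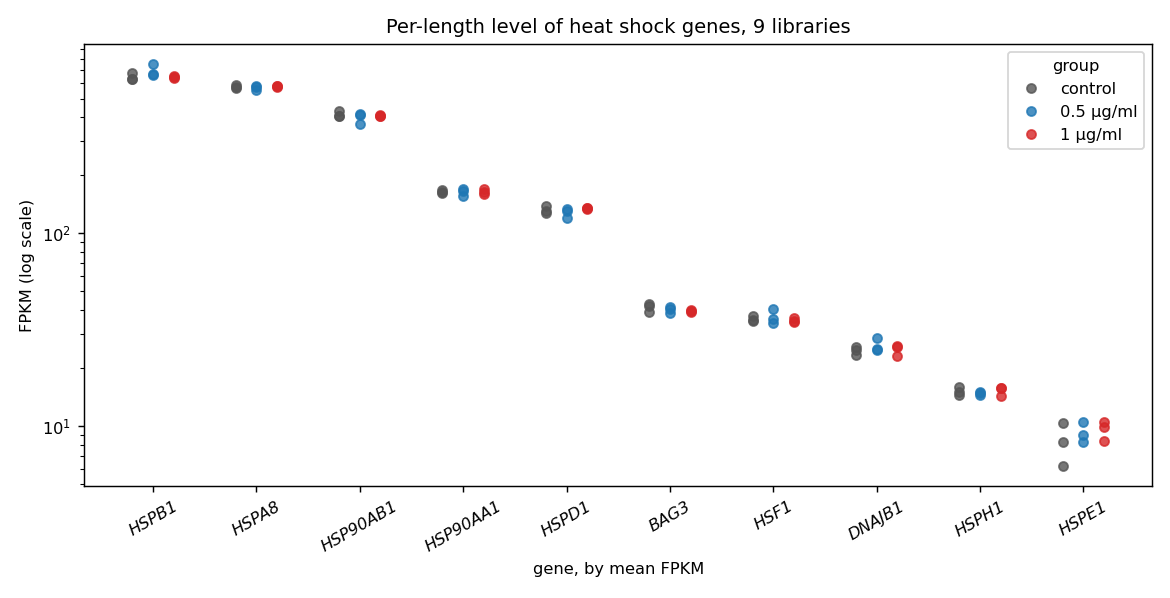
Each point is 1 library's FPKM value (vertical axis, log scale) of a heat shock gene (horizontal axis, ordered by mean FPKM), coloured by group. The 3 groups lie on top of each other for each gene, and levels fall from 664 FPKM for HSPB1 to 9.08 FPKM for HSPE1.

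Several of these genes have near-identical copies, and how reads with several matches were counted is not given in the sources used here. Stretches of at least 100 bases with at least 95% identity to transcripts of other genes covered 81.4% of the HSP90AB1 transcript, 79.9% of HSPD1, 67.9% of HSP90AA1, 34.1% of HSPE1, 28.1% of HSPB1, 26.9% of HSPA8 and 5.69% of HSF1. Pseudogenes such as HSP90AB3P, HSP90AA2P and HSPD1P1 held the longest of them, and the levels of the members with such copies are therefore uncertain. Not all of the stretches lie in copies. HSF1 shared bases only with DGAT1 (5.69%) and AC233992.1 (5.44%), and the widest share of HSPE1 (33.9%) was with the read-through gene HSPE1-MOB4, described below. HSPH1, DNAJB1 and BAG3 had no such stretch.

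HSF1 was the regulator measured here. Its values were 80.6, 83.7 and 78.7 CPM in control 1 to 3, 92.4, 81.8 and 78.4 CPM in lower dose 1 to 3, and 79.4, 78.4 and 81.7 CPM in higher dose 1 to 3. Lower dose 1 was the highest of the 9, and the other 8 lay within 78.4 to 83.7 CPM with all groups overlapping. Against control HSF1 stood at 1.04-fold at the lower dose (95% interval 0.956 to 1.13) and at 0.986-fold at the higher dose (0.906 to 1.07). Without lower dose 1 its log2 fold change at the lower dose went from 0.06 to -0.016.

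HSP90 folds and holds kinases, steroid receptors and other clients; HSP90AA1 is its heat-inducible and HSP90AB1 its constitutive cytosolic form. HSP90AA1 (chromosome 14, 102080738 to 102139699, hg38) was measured at 645, 656 and 632 CPM in control, 619, 672 and 657 CPM at the lower dose, and 664, 642 and 628 CPM at the higher dose. HSP90AB1 (chromosome 6, 44246166 to 44253888) was measured at 1236, 1163 and 1155 CPM in control, 1069, 1176 and 1194 CPM at the lower dose, and 1148, 1164 and 1149.9 CPM at the higher dose. Lower dose 1 was the lowest library for both, and their groups overlapped in all comparisons. HSP90AA1 stood at 1.01-fold of control at the lower dose (95% interval 0.944 to 1.07) and at 1.00-fold at the higher dose (0.938 to 1.07). HSP90AB1 stood at 0.968-fold (0.903 to 1.04) and 0.974-fold (0.909 to 1.04). With lower dose 1 left out, its log2 fold change at the lower dose went from -0.047 to 0.00022, and that of HSP90AA1 from 0.01 to 0.04. The per-length ratio of HSP90AB1 to HSP90AA1 was 2.53 ± 0.0974 in control, 2.43 ± 0.0639 at the lower dose and 2.47 ± 0.0761 at the higher dose (SD, n = 3 each), with overlapping ranges. The constitutive form thus outweighed the inducible form in each of the 9 libraries.

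HSPA8 (chromosome 11, 123057489 to 123063230) is the HSP70 that folds new proteins, strips clathrin coats and feeds chaperone-mediated autophagy. It was measured at 1307, 1333 and 1289.7 CPM in control, 1280.3, 1335 and 1317 CPM at the lower dose, and 1326, 1312 and 1327 CPM at the higher dose. The 9 values spanned a 1.04-fold range. Its coefficient of variation was 1.45%, against 0.617% from counting alone, and of the 73 genes within 0.5 log2 units of its level 1.37% varied less. It stood at 1.00-fold of control at the lower dose (95% interval 0.942 to 1.06) and at 1.01-fold at the higher dose (0.950 to 1.07).

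HSP70 works with helpers: J-domain proteins such as DNAJB1 bring it clients and trigger ATP hydrolysis, and HSPH1 and BAG3 release the spent nucleotide, BAG3 also steering clients into autophagy. DNAJB1 (chromosome 19, 14514770 to 14529770) was measured at 106, 102 and 94.9 CPM in control, 118, 103 and 102 CPM at the lower dose, and 106, 105 and 93.9 CPM at the higher dose. HSPH1 (chromosome 13, 31134974 to 31162388) was measured at 90.8, 85.1 and 82.2 CPM in control, 86.7, 82.5 and 85.0 CPM at the lower dose, and 89.2, 80.9 and 88.9 CPM at the higher dose. BAG3 (chromosome 10, 119651370 to 119677819) was measured at 100.2, 107 and 109.5 CPM in control, 107.7, 104.5 and 99.7 CPM at the lower dose, and 102, 101.3 and 99.6 CPM at the higher dose. Lower dose 1 was the highest library for DNAJB1, control 1 for HSPH1 and control 3 for BAG3, and all groups overlapped. At the lower dose DNAJB1 stood at 1.07-fold of control (95% interval 0.974 to 1.17), HSPH1 at 0.985-fold (0.910 to 1.07) and BAG3 at 0.985-fold (0.917 to 1.06). At the higher dose DNAJB1 stood at 1.01-fold (0.920 to 1.10), HSPH1 at 1.00-fold (0.928 to 1.09) and BAG3 at 0.956-fold (0.890 to 1.03). Without lower dose 1 the log2 fold change of DNAJB1 at the lower dose went from 0.09 to 0.02, and that between the doses from -0.08 to -0.01. DNAJB1 was also highest in replicate 1 and lowest in replicate 3 of each group, as was no other member. This order was seen after looking at the data, and the share of all genes that have it was not computed. With a term for the replicate number in the fit, the edgeR adjusted p of DNAJB1 was 0.666 at the lower dose and 0.749 between the doses. Without that term these were 0.812 and 0.886. The per-length ratio of HSPA8 to DNAJB1 was 23.3 ± 1.14 in control, 21.9 ± 2.19 at the lower dose and 23.3 ± 1.68 at the higher dose (SD, n = 3 each). Its size rests on the DNAJB1 length that the FPKM values imply, 4083 bases, where the GENCODE transcript nearest in length has 2264. Lower dose 1 had the lowest ratio of its group, 19.4, and the other lower dose libraries had a mean of 23.2.

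HSPB1 (chromosome 7, 76302544 to 76304295) was the only member with an unadjusted p under 0.05 in any comparison of the 9 libraries. It was measured at 494, 524 and 490.1 CPM in control, 591, 523 and 516 CPM at the lower dose, and 501, 509 and 497 CPM at the higher dose. Lower dose 1 stood above all other libraries, control 2 above lower dose 2 and 3, and all 3 libraries of the higher dose lay below all 3 of the lower dose. At the lower dose HSPB1 stood at 1.08-fold of control (95% interval 1.00 to 1.16), with an unadjusted p of 0.0420 from the edgeR quasi-likelihood test, which Benjamini-Hochberg adjustment over all genes took to 0.792. The higher dose stood at 0.925-fold of the lower dose (0.859 to 0.996), with an unadjusted p of 0.0394 and an adjusted p of 0.850, and at 0.999-fold of control (0.927 to 1.08). Without lower dose 1 the log2 difference from control went from 0.11 to 0.05 and that between the doses from -0.11 to -0.05, and neither then had an unadjusted p under 0.05.

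HSPD1 (HSP60) and HSPE1 (HSP10) form the barrel and the lid of the mitochondrial chaperonin and are transcribed head to head on chromosome 2. The more upstream RefSeq start of HSPD1 lies 105 bases from that of HSPE1. HSPD1 was measured at 327, 306 and 299 CPM in control, 287, 310.0 and 319 CPM at the lower dose, and 313, 318 and 317 CPM at the higher dose. HSPE1 was measured at 5.81, 3.46 and 4.63 CPM in control, 5.08, 4.62 and 5.91 CPM at the lower dose, and 4.65, 5.51 and 5.87 CPM at the higher dose. Control 1 was the highest and lower dose 1 the lowest library for HSPD1, control 2 was the lowest for HSPE1, and the groups overlapped. HSPD1 stood at 0.982-fold of control at the lower dose (95% interval 0.915 to 1.05) and at 1.02-fold at the higher dose (0.947 to 1.09). Leaving out lower dose 1, the log2 fold change of HSPD1 at the lower dose went from -0.026 to 0.017. HSPE1 stood at 1.13-fold (0.869 to 1.46) and 1.16-fold (0.893 to 1.499), with intervals that rest on 70 to 120 counts per library and do not settle changes of up to 25%. Single control libraries moved these values: the log2 fold change of HSPE1 at the lower dose, 0.17, was 0.00015 without control 2 and 0.36 without control 1, and that at the higher dose, 0.21, was 0.04 and 0.40. Without control 1 the latter had an unadjusted edgeR p of 0.0458, and an adjusted p of 0.999.

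Per length, HSPD1 exceeded HSPE1 by 16.5 ± 3.94 times in control, 13.96 ± 1.64 times at the lower dose and 14.1 ± 1.62 times at the higher dose (SD, n = 3 each). The HSPE1 count is uncertain for reasons of annotation. In GENCODE release 29 HSPE1 (197499994 to 197503457, plus strand) lies inside the span of HSPD1 (197486581 to 197516737, minus strand), introns included. Of the HSPD1 transcript 5.00% was shared with a transcript of HSPE1, and the HSPE1 transcript compared had no such stretch with HSPD1. The strand setting of the counting is not given in the sources used here, so reads of shared exonic bases cannot be told apart. A read-through gene, HSPE1-MOB4, covers 47.9% of the HSPE1 coding bases, and 9.71% of all its exonic bases, with its own exons, and no row of that name was analysed here. The part of either overlap in the low HSPE1 count was not tested.

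**Figure D2:**
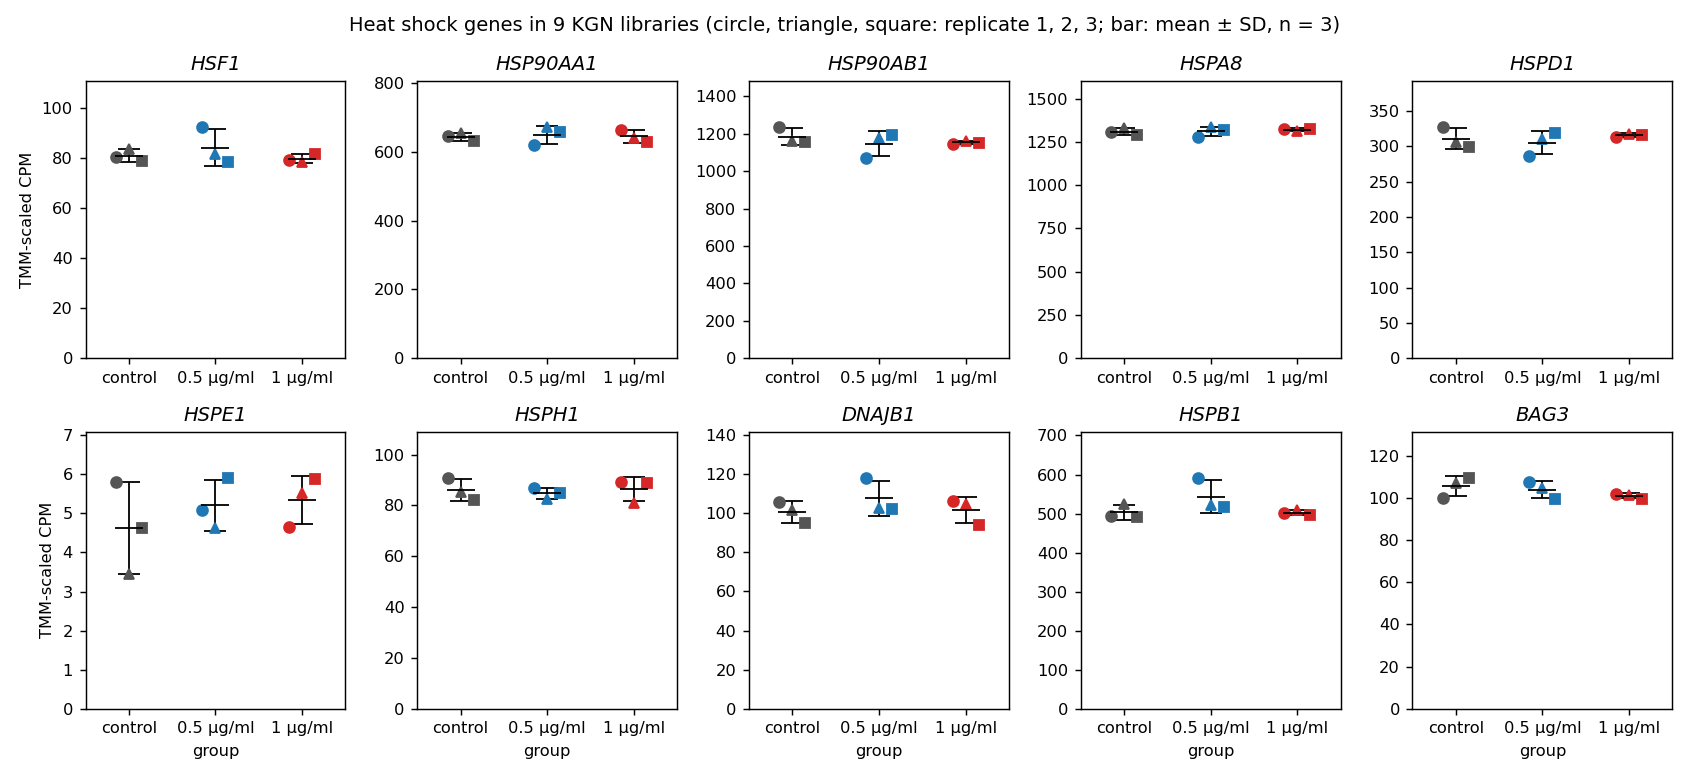
Each panel plots 1 heat shock gene: TMM-scaled CPM (vertical axis, from 0) in the 3 groups (horizontal axis), with circle, triangle and square for replicate 1, 2 and 3 and bars for the mean and SD (n = 3). The blue circle, lower dose 1, is the highest point for HSF1, DNAJB1 and HSPB1 and the lowest for HSP90AA1, HSP90AB1, HSPA8 and HSPD1.

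Over the 10 members, neither dose of insulin gave a called difference. The edgeR quasi-likelihood test called 0 of 10 at the lower dose, 0 of 10 at the higher dose and 0 of 10 between the doses, as it called 0% of all 12665 genes in each comparison. At an unadjusted p under 0.05 stood 1 member at the lower dose (6.08% of all genes), 0 at the higher dose (2.35%) and 1 between the doses (5.64%), HSPB1 in both cases, and DESeq2 gave the same counts. The 3-group test called 0 of 10 members and 0% of all genes, with 0 members and 4.43% of all genes at an unadjusted p under 0.05. DESeq2 called 1 gene in the 3-group test, which is not a member. Groups did not overlap for 0 of 10 members at the lower dose (10.7% of all genes, 5.1% higher and 5.61% lower) or at the higher dose (7.73%, 3.81% higher and 3.92% lower). Between the doses they did not for 1 of 10, HSPB1, which was lower at the higher dose (12.2% of all genes, 5.85% higher and 6.31% lower). The median log2 fold change of the members was 0.0054 at the lower dose, 0.0031 at the higher dose and 0.00015 between the doses, beside 0.0045, -0.00021 and -0.0012 for all tested genes. At each dose 6 members stood above control and 4 below. For 9 of the 10 members, all but HSPE1, the 95% interval left room for no more than a 25% increase or its inverse in each of the 3 comparisons. The same held for 70.2% of all genes at the lower dose, 72.9% at the higher dose and 70.6% between the doses.

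**Figure D3:**
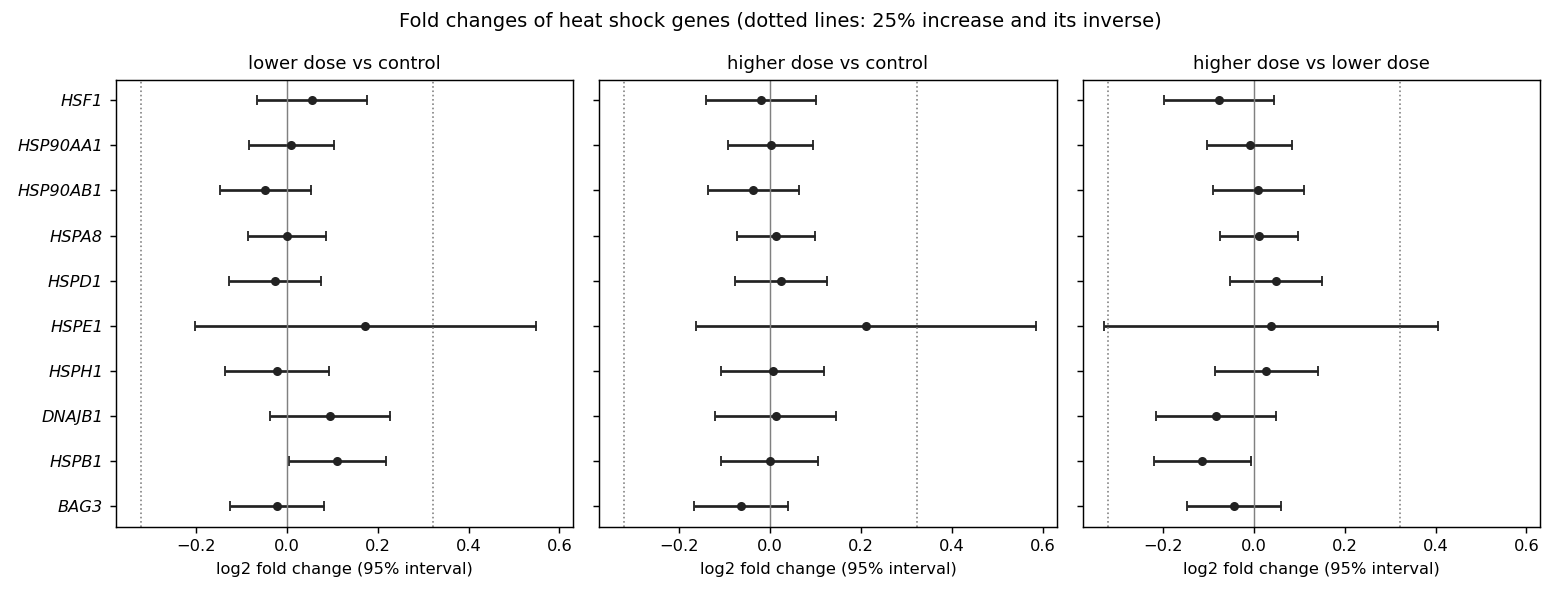
Points are log2 fold changes and bars their 95% intervals (horizontal axis) for each heat shock gene (vertical axis) in the 3 comparisons, with dotted lines at a 25% increase and its inverse. Apart from HSPE1 every interval lies between the dotted lines, and only those of HSPB1 in the left and right panels leave out 0.

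The members differed in how much they varied from library to library. HSPA8 (1.45%) and HSP90AA1 (2.72%) had the smallest coefficients of variation over the 9 libraries, BAG3, HSP90AB1, HSPD1 and HSPH1 lay between 3.66% and 4.05%, and HSF1, HSPB1 and DNAJB1 at 5.38%, 5.96% and 6.86%. HSPE1 stood at 16.01%, where counting alone gives 9.95%. Among genes within 0.5 log2 units of their level, 89.1% varied less than DNAJB1, 85.6% less than HSPB1, 77.5% less than HSPE1 and 66.2% less than HSF1, and 18.0% less than HSP90AA1. These values rest in part on lower dose 1. Over the other 8 libraries the coefficient of variation was 2.42% for HSF1, 2.58% for HSPB1 and 4.65% for DNAJB1, with 5.85%, 25.6% and 67.8% of like genes below them. HSP90AB1 and HSPD1 then stood at 2.502% and 2.73%, HSPA8 at 1.16%, and BAG3 and HSPH1 at 3.57% and 4.31%.

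Whether members varied together across libraries was examined over their 45 pairs, of which 21 had a Pearson r above 0 and 24 below, with a median of -0.09, where 50.01% of all pairs of tested genes lie above 0. At an unadjusted exact permutation p under 0.05 stood 8 pairs, and 0 after Benjamini-Hochberg adjustment over the 45. The share of all gene pairs at that threshold was not computed, so the count of 8 is not a result about the members. An r as far from 0 in the same direction as in these 8 is found for 0.120% to 2.86% of all gene pairs. HSPD1 and BAG3 gave the smallest p: the mitochondrial chaperonin was low where the autophagy co-chaperone was high, with r = -0.860 (exact permutation p = 0.00148, adjusted p = 0.0666, two-sided, n = 9) and rho = -0.867 (exact permutation p = 0.00451, adjusted p = 0.203). Without control 3 and lower dose 1, the libraries farthest from the HSPD1 median, r was -0.837, and without lower dose 1 alone it was -0.916 (exact permutation adjusted p = 0.0301). With the group means removed it was -0.935, and as low an r over the 9 libraries is found for 0.284% of all gene pairs.

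HSP90AB1 and HSPD1 went the same way, with r = 0.866 (exact permutation p = 0.00455, adjusted p = 0.102, n = 9) and rho = 0.700 (exact permutation p = 0.0433, adjusted p = 0.487). HSF1 and HSPB1 gave r = 0.896 (exact permutation p = 0.0154, adjusted p = 0.219, n = 9) and rho = 0.533 (exact permutation p = 0.148, adjusted p = 0.873). Both relations rest on the extreme libraries: r fell to 0.31 for HSP90AB1 and HSPD1 without control 1 and lower dose 1, and to 0.0999 for HSF1 and HSPB1 without control 2 and lower dose 1. Without lower dose 1 alone r was 0.66 and 0.43, and 13 of the 45 pairs changed sign, a share that was not computed for all gene pairs. With the group means removed and all libraries kept r was 0.978 and 0.916, and as high an r over the 9 libraries is found for 0.261% and 0.120% of all gene pairs. HSPD1 and HSPE1, the head-to-head pair, had r = 0.449 (exact permutation p = 0.228, adjusted p = 0.525, n = 9) and rho = 0.700 (exact permutation p = 0.0433, adjusted p = 0.487), and r was 0.73 without lower dose 1. HSF1 had an r above 0 with DNAJB1, HSPB1, HSPH1 and BAG3. Once lower dose 1 was left out, its r with DNAJB1 went from 0.64 to -0.13, while those with HSPA8 and HSP90AA1 went from -0.38 to 0.68 and from -0.47 to 0.19.

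**Figure D4:**
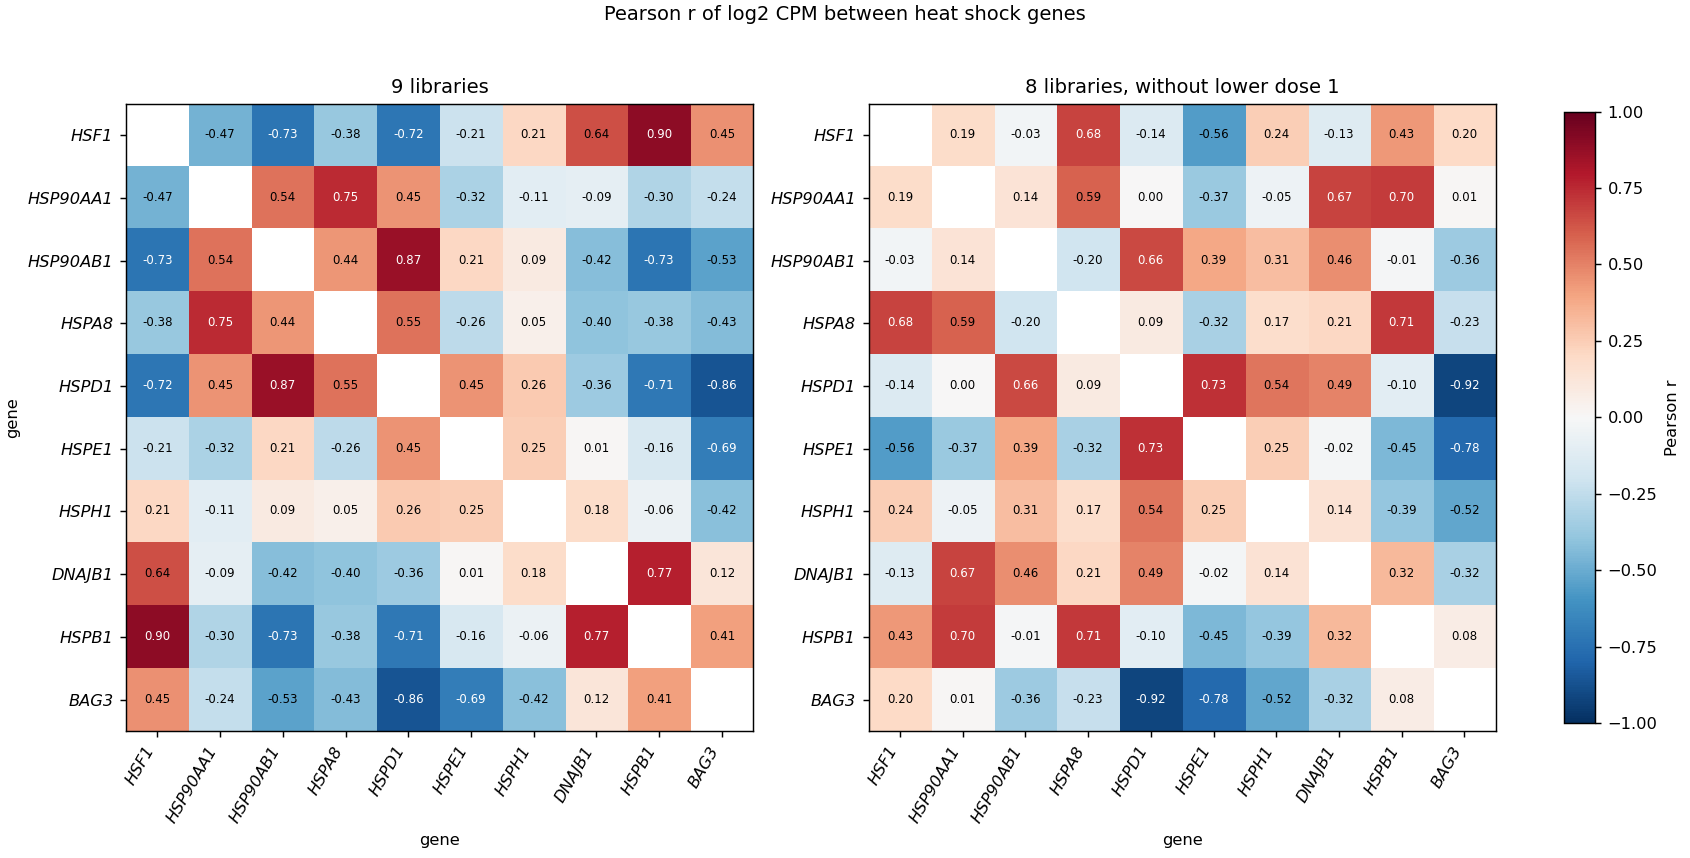
Colour and number give Pearson r of log2 CPM between each pair of heat shock genes (both axes), over all 9 libraries on the left and without lower dose 1 on the right. The red and blue blocks that join HSF1, DNAJB1 and HSPB1 and set them against HSP90AB1 and HSPD1 on the left fade or change sign on the right, while HSPD1 and BAG3 stay at -0.86 and -0.92.

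Lower dose 1 held the highest value of 3 members and the lowest of 4, so 7 of 10 had an extreme there, beside 37.6% of all genes. Its deviation from the mean of the other 8 libraries was 0.22 log2 units for HSPB1, 0.22 for DNAJB1 and 0.20 for HSF1, and -0.13 for HSP90AB1, -0.13 for HSPD1, -0.07 for HSP90AA1 and -0.04 for HSPA8. The same library deviated with the GC content of the transcripts across the genome: over 9778 genes Pearson r between a gene's deviation and its GC content was 0.61, against -0.36 (control 3) to 0.11 (lower dose 3) in the others. This correlation is across genes, which are not independent replicates. The median deviation ran from -0.09 in the fifth of genes with the lowest GC content to 0.14 in the fifth with the highest. GC content was 64.5% for HSPB1, 64.3% for HSF1, 56.9% for BAG3 and 53.0% for DNAJB1, which all deviated upward, BAG3 by 0.07. It was 48.1% for HSP90AB1, 45.2% for HSP90AA1, 43.6% for HSPA8 and 42.0% for HSPD1, which deviated downward. HSPE1 and HSPH1 had GC contents as low, 42.7% and 40.0%, and deviated upward by 0.03 and 0.02. The median over all genes was 47.9%, just below HSP90AB1. The part of GC content in the members' values was not tested.

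**Figure D5:**
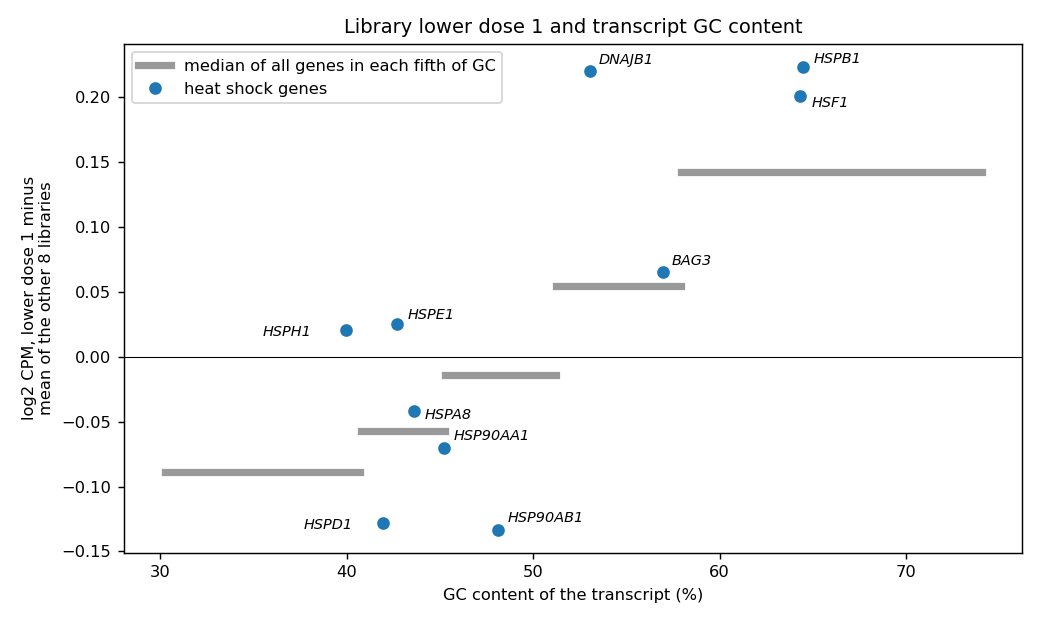
The vertical axis is the log2 CPM of lower dose 1 minus the mean of the other 8 libraries, the horizontal axis the GC content of the transcript; points are heat shock genes and grey bars the median of all genes in 5 equal groups by GC content. The grey bars climb from -0.09 to 0.14, and HSPB1, HSF1 and DNAJB1 lie above 0 while HSPD1 and HSP90AB1 lie below; HSPE1 and HSPH1 lie just above 0 at low GC content.

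The wider folding network was read from 113 further genes, of which 111 were in the table and 104 were tested. The edgeR quasi-likelihood test called 0 of the 104 in each comparison. An unadjusted p under 0.05 was reached by 5 at the lower dose (4.81%), 2 at the higher dose (1.92%) and 4 between the doses (3.85%), shares no larger than the 6.08%, 2.35% and 5.64% of all genes. DESeq2 also called 0 of the 104 in each comparison, with 3, 2 and 4 at an unadjusted p under 0.05.

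Among all tested genes 51.9% stood above control at the lower dose and 49.8% at the higher dose. Of the other HSP70 family members, which include the ER form HSPA5 and the mitochondrial form HSPA9, 6 of 12 stood above control at the lower dose and 3 of 12 at the higher dose. J-domain proteins stood above control in 7 of 19 and 9 of 19, HSP90 paralogs and co-chaperones in 8 of 18 and 6 of 18. The subunits of TRiC, the cytosolic chaperonin that folds actin and tubulin, stood above control in 6 of 8 and 7 of 8, with median log2 fold changes of 0.01 and 0.02. Prefoldin subunits, which hand clients to TRiC, stood above control in 2 of 6 and 4 of 6, small heat shock proteins in 4 of 6 and 3 of 6, and BAG and other exchange factors in 5 of 9 and 4 of 9. Mitochondrial chaperones and proteases stood above control in 9 of 14 at the lower dose and in 3 of 14 at the higher dose, with medians of 0.01 and -0.0083. HSF1 regulators and other heat shock factors stood above control in 7 of 10 and 5 of 10. Genes listed as heat-inducible HSF1 targets stood above control in 17 of 25 and 13 of 25, with medians of 0.02 and 0.0012. Without lower dose 1 the count of heat-inducible targets above control at the lower dose was 13 of 25, that of HSF1 regulators 5 of 10, of the HSP70 family 8 of 12, of exchange factors 7 of 9 and of mitochondrial genes 10 of 14, beside 50.6% of all genes. Some genes stand in more than 1 list.

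In each list the 2 genes with the smallest 3-group p were looked up, and of the heat-inducible targets 1 is given. In the HSP70 family these were HSPA14 (0.0596) and HSPA5 (0.252), among J-domain proteins DNAJB14 (0.235) and DNAJC19 (0.248), and among small heat shock proteins HSPB3 (0.247) and HSPB11 (0.382). TRiC gave CCT8 (0.112) and CCT3 (0.454), prefoldin PFDN4 (0.236) and PFDN2 (0.316), and the exchange factors BAG1 (0.256) and BAG4 (0.400). The HSP90 list gave FNIP1 (0.0152) and CDC37L1 (0.102), the mitochondrial list SPG7 (0.0245) and LONP1 (0.174), the list of HSF1 and its regulators HSF2 (0.0673) and MAPKAPK2 (0.367), and the heat-inducible targets SERPINH1 (0.120). All are unadjusted edgeR quasi-likelihood values, and each has an adjusted p of 0.982 or 0.983.

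The smallest p values for any difference among the groups in these lists belonged to FNIP1, which slows the ATPase of HSP90, and SPG7, a subunit of a mitochondrial inner membrane protease. FNIP1 was measured at 34.9, 33.2 and 35.5 CPM in control, 28.4, 31.6 and 30.5 CPM at the lower dose, and 33.1, 34.2 and 33.7 CPM at the higher dose, so that the lower dose lay below both other groups, at an unadjusted edgeR p of 0.0152 and an adjusted p of 0.982. SPG7 was measured at 75.9, 72.5 and 72.7 CPM in control, 81.5, 68.0 and 70.8 CPM at the lower dose, and 64.8, 62.7 and 69.1 CPM at the higher dose, where it lay below control, at an unadjusted edgeR p of 0.0245 and an adjusted p of 0.982. HSF2, the other broadly expressed heat shock factor, was measured at 26.1, 28.1 and 27.8 CPM in control, 23.3, 23.2 and 26.4 CPM at the lower dose, and 24.1, 26.1 and 24.4 CPM at the higher dose, with the higher dose narrowly below control and the lower dose overlapping both (edgeR adjusted p = 0.982). None of these passed the adjustment over all genes.

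For each member, the 2 non-member genes with the highest Pearson r of log2 CPM over the 9 libraries were looked up. Only genes with a mean of at least 3 log2 CPM were used. TRAP1 was the only chaperone found. HSPH1 was nearest to TRAP1, the mitochondrial HSP90 (r = 0.950), and to PHF13 (0.949). HSPB1 was nearest to LOXL1, a lysyl oxidase of the matrix (0.982), HSF1 to SLC7A1, an amino acid transporter (0.970), and DNAJB1 to TRIM28, a transcriptional corepressor (0.969). HSPD1 was nearest to MMADHC (0.9754) and to the ribosomal protein gene RPS13 (0.974), HSP90AB1 to RSL24D1 (0.968), HSP90AA1 to TMCO1 (0.977), HSPA8 to TNFSF4 (0.945), HSPE1 to S100A6 (0.953) and BAG3 to PALM2AKAP2 (0.927). These r values describe the closest of 9937 genes over the same 9 libraries, which share depth and composition, and carry no test. They were not recomputed without lower dose 1, the highest library for HSPB1, HSF1 and DNAJB1.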

How the data were processed

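Per the labels' protocols, RNA was taken up in TRIzol and sequenced from VAHTS libraries. For the 9 libraries the authors deposited counts per gene and, in a second table, FPKM values. Trimmomatic, HTSeq, DESeq and the build hg38 are named in the submitters' processing notes; which aligner, annotation, versions and strand setting were used is not given in the sources used here. Deposited FPKM values are the deposited counts rescaled: the gene length they imply was whole within 1e-06 for 11053 of the 11053 genes that had 50 counts or more in each library.

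Counts were tested with edgeR 4.0.16 (R 4.3.3): TMM scaling, filterByExpr (minimum count 10, minimum total 15; 12665 of 15983 genes kept), a quasi-likelihood fit over all 3 groups with no covariate, and Benjamini-Hochberg adjustment over all tested genes with a threshold of 0.05. The fit was tested on simulated data. CPM values are TMM-scaled, log2 CPM uses a prior count of 2, and fold changes are from the fit with 95% intervals. Library totals differed little, and the common biological coefficient of variation was 5.39%. No libraries were identical. Correlations used exact permutation tests over the 9 libraries.

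The members, the wider chaperone lists, the marker lists and the alternatives were chosen with earlier results of these data known. All members are named; other names are the 2 genes of each list with the smallest 3-group p, the 2 nearest genes of each member, and genes that share sequence or reads with a member; 1 gene that the rule names is not reported here. Alternatives were DESeq2 1.42.0, RLE scaling, other filters, limma-trend (limma 3.58.1) on log2(FPKM + 1), 2 groups alone, a replicate block and leaving out each library. Copies were found with blastn 2.17.0 on GENCODE release 29 transcripts, and GC content is that of the GENCODE transcript nearest in length to the implied length, which for DNAJB1 is a poor match (2264 against 4083 bases). Gene coordinates are from GENCODE release 29 and promoter sequences from RefSeq.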

Additional observations from a re-analysis of the deposited data

How the results depend on the processing

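Over 16 alternative settings, the 30 fold changes of the members (10 genes in 3 comparisons) were recomputed 480 times. In 440 cases direction and call were kept, in 40 the sign changed and in 0 the call changed, the smallest adjusted p being 0.512; no log2 fold change that had changed sign exceeded 0.0394 in size. Outside the settings that leave out a library, HSPA8 at the lower dose against control went to -0.00040 with DESeq2, -0.00024 with RLE scaling, -0.00099 with no filter, -0.00058 with at least 1 CPM in 3 libraries and -0.0092 on log2(FPKM + 1). On the last scale HSP90AA1 at the lower dose went to -0.00060, HSPB1 at the higher dose to 0.0026, and HSP90AA1 between the doses to 0.0047.

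For the results whose sign changed, leaving out 1 library at a time gave these ranges of the log2 fold change at the lower dose against control: BAG3 -0.0576 to 0.00682, HSF1 -0.016 to 0.104, HSP90AA1 -0.0154 to 0.0432, HSP90AB1 -0.0778 to 0.000224, HSPA8 -0.0128 to 0.0173, HSPD1 -0.0588 to 0.0168 and HSPH1 -0.0547 to 0.019. At the higher dose against control the ranges were -0.0306 to 0.0653 for DNAJB1, -0.0416 to 0.00474 for HSF1, -0.0214 to 0.0191 for HSP90AA1, -0.0200 to 0.0302 for HSPB1, -0.00311 to 0.0624 for HSPD1 and -0.0266 to 0.051 for HSPH1. Between the doses they were -0.0421 to 0.0166 for HSP90AA1, -0.0375 to 0.0401 for HSP90AB1, -0.00435 to 0.0258 for HSPA8 and -0.0394 to 0.14 for HSPE1. HSPE1 kept its sign against control but moved most, spanning 0.00015 to 0.364 (lower dose) and 0.0383 to 0.402 (higher dose). The cause of these shifts was not tested.

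Over all genes, no filter called 6 at the lower dose, 3 at the higher dose, 4 between the doses and 8 in the 3-group test, where the filtered fit called 0, and DESeq2 called 1 in the 3-group test. Leaving out 1 library gave 0 to 1 at the lower dose, 0 at the higher dose, 0 to 2 between the doses (2 without lower dose 1) and 0 to 3 in the 3-group test (3 without lower dose 1); none was a member. The cause was not tested. Of the 45 member pairs, 0 to 3 passed the adjustment with 1 library left out: HSPD1 and BAG3 without control 3 and without lower dose 1, and, without higher dose 3, that pair, HSP90AA1 with HSPA8 (r = 0.947) and HSP90AB1 with HSPD1.

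With the replicate block the edgeR fit called 0 genes in each of the 4 tests. An unadjusted p under 0.05 was reached by more genes with the block than in the main fit. The counts were 971 beside 770 (lower dose, control), 343 beside 298 (higher dose, control), 891 beside 714 (between doses) and 749 beside 561 (3-group test). Deviations of same-numbered libraries had correlations of -0.012 to 0.16, of which 1 of 9 was over 0.1. Those of differently numbered libraries ran from -0.11 to 0.057. The highest values, 0.16 and 0.082, thus fell on same-numbered libraries. The main fit did not pair libraries by number, and whether same-numbered libraries share a source of variation was not tested. HSPE1 had the fewest counts of the members, 70 to 120 per library. Counting alone gives a coefficient of variation of 9.95% for HSPE1 and of at most 2.48% (HSF1) for the other members.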
